A study of Mus musculus with 27 samples.

Results

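Wild-type Ba/F3 cells that had been kept without the cytokine IL3 were compared before and shortly after IL3 was given back. This comparison used 10 of the 27 libraries of the series, chosen by their sample titles. Ba/F3 is an established mouse cell line, labelled pro-B, that was grown in RPMI medium with IL3 at 1 ng/mL. The deprived group (n = 5 libraries) had 6 h without IL3. The stimulated group (n = 5) had the same 6 h without IL3, followed by IL3 at 10 ng/mL for 30 min. Both groups were wild type, carried no lentiviral hairpin and had no other treatment. Every cell of the comparison had therefore been deprived, and no wild-type library from cells left in IL3 was analysed here. PolyA RNA was sequenced, and the series calls the libraries of a group biological replicates without saying which cultures they came from. If they came from 1 culture, the p-values below measure only the spread between libraries. Libraries with the same replicate number were treated as a pair, giving 5 pairs.

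Counted reads ranged from 14.4 to 31.2 M in the deprived and from 12.7 to 33.8 M in the stimulated libraries. Levels are in CPM, the number of reads of a gene for every M reads that fell in genes, after library sizes were adjusted by the TMM method, which assumes that most genes do not differ. The 2 libraries numbered 2 had fewer multi-mapped reads per counted read (0.177 and 0.190) than the other 8 (0.250 to 0.295). Deprived replicate 3 had the highest share of ambiguous reads (1.53%) and a scaling factor of 0.865, against 0.975 to 1.04 in the other 9 libraries. The pro-B label was checked against 12 B-lineage markers. Ptprc, the leukocyte surface phosphatase CD45, was at 153 to 257 CPM, and Cd79a and Cd79b, the signalling chains of the B cell receptor, were at 45.0 to 56.6 and 19.6 to 65.5 CPM. Ebf1 and Pax5, the transcription factors that define the B lineage, had no read in any of the 10 libraries, nor had Rag1 or Blnk, and 9 of the 12 markers stayed under 1 CPM throughout. Gata1 (259 to 441 CPM), Gata2 (438 to 1078 CPM) and Itga2b (256 to 789 CPM), markers of erythroid, megakaryocyte and mast cell progenitors, were all detected. The defining B-lineage markers are thus absent, and the cells are called Ba/F3 below. In RNA from whole cultures, fewer cells of a type and less RNA per cell cannot be told apart.

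IL3 binds a receptor made of a specific alpha chain and a shared beta chain. The receptor activates the kinase JAK2, which phosphorylates STAT5A and STAT5B and also feeds the RAS/ERK and PI3K/AKT cascades. The STAT proteins enter the nucleus and bind TTCNNNGAA motifs, and ERK acts through serum response factor and its ETS partners at CArG boxes of immediate early genes. These genes need no new protein for their induction. Several of them encode inhibitors of the same cascades, so the response also limits itself. Without IL3, AKT activity drops, FOXO factors enter the nucleus and Ba/F3 cells stop dividing and later die.

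The 30 min of IL3 changed many transcripts, a few of them very strongly and many of them slightly. Of 11195 genes with enough reads to be tested, among 24000 symbols in the files, 2504 (22.4%) were called at an adjusted p under 0.05 (edgeR quasi-likelihood test with a block for the replicate number). Of all genes tested, 1486 (13.3%) rose and 1018 (9.09%) fell, and the median log2 fold change over all genes was -0.02. Rises reached much further than falls. More than 16-fold differences were seen for 22 genes that rose and for 0 that fell, 4 to 16-fold differences for 48 and 2, and 2 to 4-fold differences for 197 and 54. At the low end, 135 rises and 180 falls were under 1.2-fold. Together, the 267 genes raised at least 2-fold went from 8671 to 31517 CPM, summed over the genes and averaged over the libraries, and the 56 genes lowered at least 2-fold went from 1536 to 528 CPM. Of the called genes, 68.1% changed by less than 1.5-fold, and 95.8% of all called genes had the same sign in all 5 pairs. Groups that did not overlap were found for 807 genes with higher stimulated levels (7.21% of genes tested) and 491 with lower ones (4.39%). Genes of 1 sign in all 5 pairs were 21.5% (higher) and 23.2% (lower) of all genes tested, called or not.

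The number of called genes depended on single pairs far more than the number of large rises did. It was 786, 662 and 475 without pair 2, 4 or 5, 3056 and 3454 without pair 1 or 3, and 1170 without the block, whereas the rises of at least 2-fold stayed between 184 and 361 when any 1 pair was left out. The falls of at least 2-fold, 56 with all pairs, were 93, 44, 36, 37 and 29 without pairs 1 to 5. Counts for gene groups move with this total. They are therefore given with their range over the 5 fits that each left out 1 pair, whose low ends come from the fits without pair 2, 4 or 5. All gene lists were chosen with earlier results of these data known, so the shares of their members that changed are descriptions and test nothing.

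**Figure D1:**
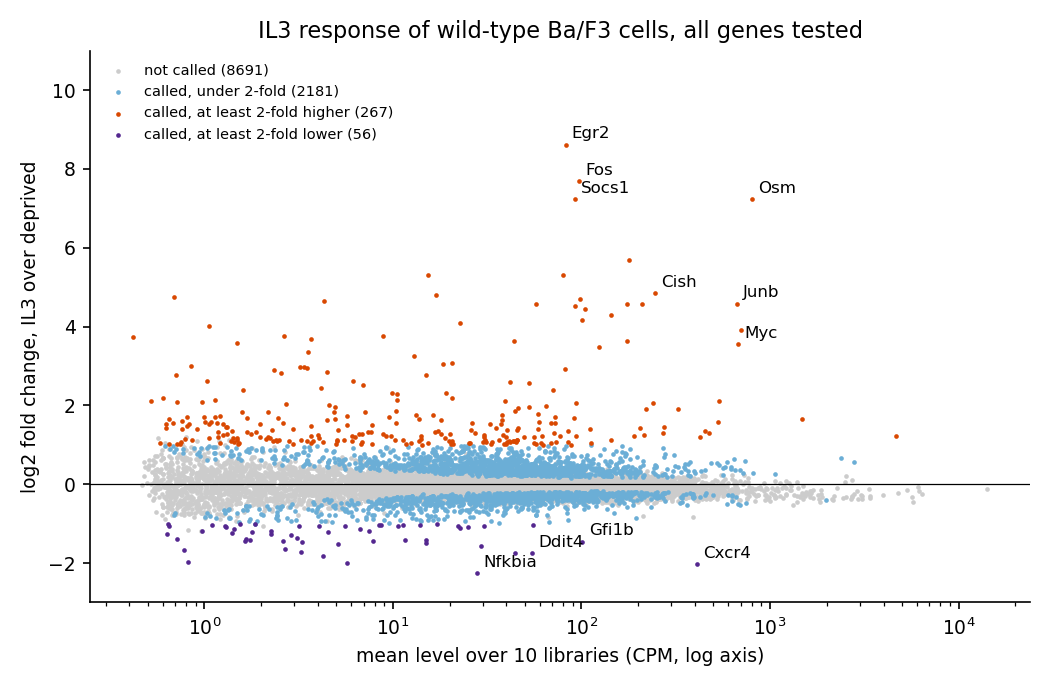
Each point is 1 of 11195 genes, with its mean level over the 10 libraries in CPM (log axis) against its log2 fold change of stimulated over deprived cells. Colours separate genes not called, genes called under 2-fold, and the 267 rises and 56 falls of at least 2-fold, and the highest points are Egr2, Fos, Socs1 and Osm.

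The sequences before the start sites of 4 strongly raised genes are shown first, because they hold or lack the motifs of the factors named above. Each line runs 5′ to 3′ on the gene's strand from 180 bases before to 20 bases after the RefSeq start (GRCm38.p6). Position 1 is the first base of the chosen RefSeq transcript and position -1 the base before it. The GENCODE genes of Egr2, Socs3 and Cish begin further upstream, at 67535475, 117970047 and 107296026. Their windows therefore lie inside the annotated gene, and motif positions hold for the chosen start only. Capitals mark matches to TTCNNNGAA (STAT) and to the CArG box. The windows are chr10:67537689-67537888 on the plus strand for Egr2, chr12:85473710-85473909 on the plus strand for Fos, chr11:117969347-117969546 on the minus strand for Socs3 and chr9:107296479-107296678 on the plus strand for Cish.
Egr2: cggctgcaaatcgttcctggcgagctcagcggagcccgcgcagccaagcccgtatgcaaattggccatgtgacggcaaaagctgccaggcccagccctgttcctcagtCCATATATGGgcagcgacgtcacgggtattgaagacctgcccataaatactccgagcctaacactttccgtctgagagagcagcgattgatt
Fos: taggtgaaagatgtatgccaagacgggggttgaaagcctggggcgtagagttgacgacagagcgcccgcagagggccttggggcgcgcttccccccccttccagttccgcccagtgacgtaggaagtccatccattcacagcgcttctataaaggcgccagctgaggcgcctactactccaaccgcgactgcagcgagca
Socs3: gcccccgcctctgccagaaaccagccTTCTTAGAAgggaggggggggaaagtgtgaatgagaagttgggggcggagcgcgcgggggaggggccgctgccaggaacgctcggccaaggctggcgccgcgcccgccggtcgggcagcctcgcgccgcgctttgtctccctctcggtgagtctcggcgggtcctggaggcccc
Cish: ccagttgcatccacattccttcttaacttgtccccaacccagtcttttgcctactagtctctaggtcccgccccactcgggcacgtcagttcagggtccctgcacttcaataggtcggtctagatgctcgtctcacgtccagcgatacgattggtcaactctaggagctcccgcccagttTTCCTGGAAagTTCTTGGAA

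The Egr2 window holds 1 CArG match, which begins at position -72. In Socs3, 1 STAT match begins at -154, and in Cish 2 STAT matches begin at 1 and 12, on either side of a spacer of 2 bases. The Fos window holds neither motif, but it has TGACG, the core of the cAMP response element, at -129 and -66 and TATAAA at -33. No STAT or CArG match was found in the Socs1 and Pim1 promoters. No match says only that these letters are not in this window. Over all 8426 tested genes with an entry in the promoter table (250 bases before to 50 after the start), 7.10% held TTCNNNGAA, against 19.6% of the genes raised at least 4-fold (9 of 46) and 9.04% of those raised at least 2-fold (16 of 177). The share was also higher among genes lowered at least 2-fold, at 13.6% (6 of 44). The CArG box was in 1.10% of all and in 6.21% (11) of the genes raised at least 2-fold. TATAAA was in 4.00% of all and 7.91% of these genes, and GCGNGGGCG, the EGR motif, in 10.6% and 14.1%. CCGGAAG, the ETS motif, went the other way, with 20.6% of all tested genes and 14.7% (26) of those raised at least 2-fold, and 8.70% (4) of those raised at least 4-fold. The AP-1 motif TGANTCA was in 4.68% of all and 8.47% of the genes raised at least 2-fold, TGACG in 33.7% and 30.5%, and the E-box CACGTG in 10.3% and 12.4%. Among genes lowered at least 2-fold, GTAAACA, the FOXO motif, was in 11.4% (5 of 44), against 2.30% of all tested genes. In all 27025 symbols of the table, the shares were 8.47% for STAT, 1.57% for CArG, 8.88% for TATAAA, 5.55% for EGR, 9.12% for ETS and 3.55% for FOXO. Both strands were searched except for TATAAA, no STAT match overlapped a CArG match in the windows shown, and these shares are descriptions of few genes.

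Feedback inhibitors of the JAK/STAT cascade were among the strongest rises. Cish, whose SH2 protein binds the activated beta chain (chr9:107296026-107302784, plus strand), was at 23.3, 16.1, 14, 12.1 and 17.2 CPM in deprived replicates 1 to 5 and 345, 471, 545, 529 and 483 CPM in stimulated replicates 1 to 5. All 5 stimulated libraries stood above all 5 deprived ones, and replicate 1 had both the highest deprived and the lowest stimulated level (log2 fold change 4.84, SE 0.23, adjusted p = 1.61e-05). Socs1, an inhibitor of JAK kinase activity (chr16:10782240-10785536, minus strand), was nearly silent before IL3, at 1.09, 1.82, 0.960, 0.907 and 1.16 CPM in deprived replicates 1 to 5 and 135, 207, 189, 197 and 186 CPM in stimulated replicates 1 to 5 (log2 fold change 7.24, SE 0.13, adjusted p = 3.89e-08). Socs3, which blocks JAKs at gp130-type receptors (chr11:117966079-117970047, minus strand), was at 6.84, 5.45, 4.0, 6.53 and 5.88 CPM in deprived replicates 1 to 5 and 110.1, 336, 241, 649.8 and 427 CPM in stimulated replicates 1 to 5. Its stimulated libraries spread widely, with replicate 1 lowest and replicate 4 highest, but none came near the deprived range (log2 fold change 5.70, SE 0.37, adjusted p = 0.000105). Socs2, a weaker inhibitor, rose little, from 34.9 ± 2.45 to 44.5 ± 2.62 CPM (SD, n = 5, log2 fold change 0.35, SE 0.06, adjusted p = 0.00973). It missed the threshold without pair 5 (adjusted p = 0.059). Of the 19 tested genes of a list of STAT5 targets, 15 rose (78.9%, against 13.3% of all genes tested) and 0 fell, and the median log2 fold change was 2.05. Earlier results of these data were known when the list was chosen, so its counts are a description and no test. Leaving out 1 pair, 11 to 17 rose and 0 to 1 fell. DESeq2 gave 16 rises and 0 falls in the list, and 17 higher and 0 lower genes had an unadjusted p under 0.05. Bcl2, Ccnd1, Ccnd2 and Ccnd3 were the 4 without a call. Ccnd2, the cyclin D2 gene, had means of 67.3 ± 17 to 82.5 ± 8.41 CPM (SD, n = 5, log2 fold change 0.32, SE 0.11, adjusted p = 0.0656), and it passed without pair 1 (adjusted p = 0.049) or pair 3 (adjusted p = 0.028). Bcl6, a STAT5-repressed gene, had too few reads to be tested.

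Genes of secreted signals rose next to the inhibitors. Osm, which encodes oncostatin M and is a classic STAT5 target (chr11:4236420-4241026, plus strand), was at 9.74, 9.96, 8.54, 11.7 and 13.3 CPM in deprived replicates 1 to 5 and 1468, 1419, 1444, 1579 and 2039.7 CPM in stimulated replicates 1 to 5. The pairs gave very similar ratios (log2 fold change 7.23, SE 0.09, adjusted p = 7.63e-09). Lif, a related cytokine, went from 4.43 ± 1.204 to 36.8 ± 4.68 CPM (SD, n = 5, log2 fold change 3.07, SE 0.13, adjusted p = 1.11e-05). Il6, a further cytokine that signals through gp130, rose from 19 ± 4.83 to 73.3 ± 21.4 CPM (SD, n = 5, log2 fold change 1.93, SE 0.17, adjusted p = 0.000636), and the angiogenic factor Vegfa from 16.9 ± 3.56 to 34.6 ± 5.62 CPM (SD, n = 5, log2 fold change 1.04, SE 0.10, adjusted p = 0.000905). Tnf was raised from 0.554 ± 0.223 to 4.14 ± 1.57 CPM (SD, n = 5, log2 fold change 2.91, SE 0.19, adjusted p = 0.000105). Of 11 tested cytokine and chemokine genes, 6 rose (54.5%, against 13.3% of all genes tested) and 1 fell (9.09%, as of all genes tested). The median log2 fold change was 1.04. Leaving out 1 pair, 6 to 7 rose and 0 to 2 fell. Hbegf, an EGF receptor ligand chosen after its values were seen, was the 6th that rose (log2 fold change 3.36). Ltb was the one that fell (log2 fold change -0.51), was likewise chosen afterwards, and lost its call without pair 2, 4 or 5 (adjusted p = 0.081 to 0.12 by edgeR).

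Immediate early transcription factors formed the second large group. Egr2, a zinc finger activator (chr10:67535475-67542188, plus strand), rose most of all genes with a mean of at least 5 CPM, and was at 0.468, 0.135, 0.427, 0.423 and 0.684 CPM in deprived replicates 1 to 5 and 240.2, 154, 150.5, 114 and 163 CPM in stimulated replicates 1 to 5 (log2 fold change 8.62, SE 0.17, adjusted p = 6.91e-08). Its highest stimulated level was in replicate 1. Fos, the partner of JUN in the AP-1 dimer (chr12:85473890-85477273, plus strand), was at 1.249, 0.808, 0.373, 0.846 and 1.23 CPM in deprived replicates 1 to 5 and 619.7, 83.1, 91.8, 71.5 and 105 CPM in stimulated replicates 1 to 5. Stimulated replicate 1 stood far above the other 4, and without that pair the log2 fold change was 6.79 (log2 fold change 7.70, SE 0.36, adjusted p = 1.59e-05 with all pairs). Junb, an AP-1 subunit (chr8:84974484-84978718, minus strand), was at 57.3, 60.6, 34.6, 58.9 and 58 CPM in deprived replicates 1 to 5 and 1263, 1393, 987, 1415 and 1326 CPM in stimulated replicates 1 to 5 (log2 fold change 4.58, SE 0.09, adjusted p = 3.89e-08). It overlaps Prdx2 on the opposite strand, and whether counting used the strand is not given in the sources used here. Egr1, the best known relative of Egr2, was barely detected even with IL3, from 0.468 ± 0.309 to 1.53 ± 0.354 CPM (SD, n = 5, log2 fold change 1.72, SE 0.34, adjusted p = 0.0134). Id1, which blocks basic helix-loop-helix factors, went from 24.9 ± 5.89 to 323 ± 104 CPM (SD, n = 5, log2 fold change 3.64, SE 0.14, adjusted p = 4.93e-06). The bZIP factor Maff and the nuclear factor Csrnp1 rose as well (log2 fold change 4.08 and 4.52), as did Fosb (5.30). Of 30 tested genes of this class, 23 rose (76.7%, against 13.3% of all genes tested) and 2 fell (6.67%, against 9.09%), with a median log2 fold change of 1.58. Those that fell were Klf10 (-0.79) and Cebpb (-0.50), named after their values were seen. Both lost their call without pair 2, 4 or 5 (adjusted p = 0.064 to 0.10 by edgeR). Leaving out 1 pair, 19 to 23 rose and 0 to 2 fell.

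**Figure D2:**
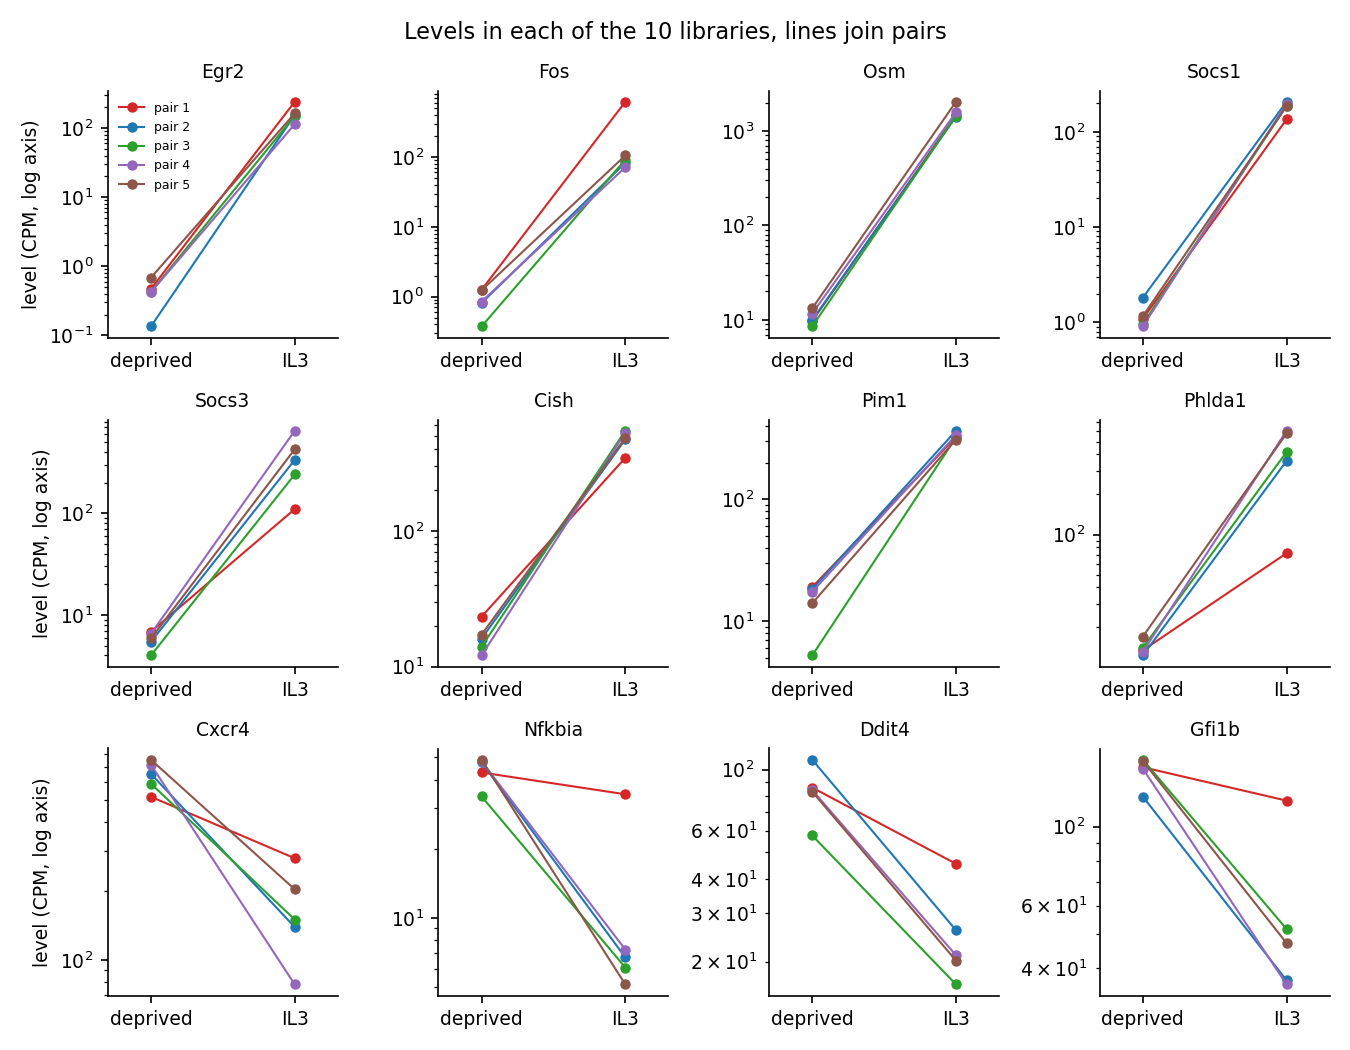
Levels of 12 genes in each library in CPM (log axis), deprived on the left and stimulated on the right of each panel, with a line joining the 2 libraries of a pair. Socs3, Phlda1, Nfkbia and Gfi1b show the weaker change of pair 1, whereas Fos rose furthest in that pair.

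Phosphatases and adaptors that switch off ERK, and proteins that destabilise the new mRNAs, rose in the same 30 min. Of 16 tested genes of ERK feedback, 13 rose (81.25%, against 13.3% of all genes tested) and 0 fell, with a median log2 fold change of 1.29 (9 to 13 rose and 0 fell, leaving out 1 pair). DESeq2 gave 14 and 0 here, and 14 higher and 0 lower genes had an unadjusted p under 0.05. Dusp1, a nuclear MAP kinase phosphatase, was at 9.93, 9.96, 6.46, 9.25 and 10.3 CPM in deprived replicates 1 to 5 and 238, 219, 129, 196 and 219.6 CPM in stimulated replicates 1 to 5 (log2 fold change 4.44, SE 0.07, adjusted p = 1.23e-08). Dusp5, an ERK-specific phosphatase, rose from 1.18 ± 0.643 to 32.6 ± 5.07 CPM (SD, n = 5, log2 fold change 4.81, SE 0.26, adjusted p = 3.75e-05), and Dusp2 from 2.38 ± 0.729 to 23.5 ± 7.17 CPM (SD, n = 5, log2 fold change 3.26, SE 0.18, adjusted p = 3.75e-05). Spry2, an inhibitor between receptor and RAS, rose less (log2 fold change 1.09, SE 0.11, adjusted p = 0.00118). Ier3, an early response gene that prolongs ERK activity, had a log2 fold change of 2.92. Zfp36 (tristetraprolin), which binds AU-rich 3′ ends and recruits the deadenylase, was at 8.21, 7.94, 3.73, 7.62 and 8.07 CPM in deprived replicates 1 to 5 and 345, 157, 165, 110.0 and 171 CPM in stimulated replicates 1 to 5 (log2 fold change 4.70, SE 0.25, adjusted p = 3.13e-05). Replicate 1 was again the highest stimulated library. Plk3 and Dusp1 have annotated neighbours on the opposite strand that overlap them, Tctex1d4 and Ergic1. Btg2, which activates the CCR4-NOT deadenylase, rose from 13.7 ± 3.08 to 272 ± 78.3 CPM (SD, n = 5, log2 fold change 4.30, SE 0.17, adjusted p = 7.32e-06), and Zc3h12a, the endonuclease regnase-1, from 11.5 ± 3.88 to 72.5 ± 25.3 CPM (SD, n = 5, log2 fold change 2.59, SE 0.22, adjusted p = 0.000463). Over 28 tested mRNA decay regulators, the median log2 fold change was 0.18, 11 rose (39.3%, against 13.3% of all genes tested) and 2 fell (7.14%, against 9.09%). The latter were Pnrc1, named after its value was seen, and Pnrc2 (log2 fold change -0.74 and -0.47), which are coactivators with a role in decapping. Pnrc1 was higher, not lower, in pair 1 and was called only with all pairs and without pair 1 (adjusted p = 0.13 to 0.24 by edgeR in the other 4 fits). Over the list, 6 to 11 rose and 1 to 2 fell when 1 pair was left out.

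Single genes of growth and survival control rose, among them Pim1, Myc and Mcl1. Pim1, a serine kinase that stands in for AKT (chr17:29490753-29496112, plus strand), was at 19, 18.3, 5.23, 17.4 and 14 CPM in deprived replicates 1 to 5 and 326, 366, 322, 337 and 310.0 CPM in stimulated replicates 1 to 5 (log2 fold change 4.56, SE 0.25, adjusted p = 3.88e-05). Deprived replicate 3 was lowest, and the 5 stimulated libraries were within 310 to 366 CPM. Pim2 moved far less, from 8.58 ± 1.96 to 11.6 ± 1.82 CPM (SD, n = 5, log2 fold change 0.45, SE 0.10, adjusted p = 0.0196), and missed the threshold without pair 2, 4 or 5 (adjusted p = 0.068, 0.076 and 0.054). Myc (chr15:61985391-61990374, plus strand) was at 161, 78.4, 67.3, 135 and 107 CPM in deprived replicates 1 to 5 and 1287, 1007, 1205, 1412 and 1296 CPM in stimulated replicates 1 to 5 (log2 fold change 3.56, SE 0.16, adjusted p = 1.42e-05). Of 14 tested genes of the MYC network, only Myc and Mycn rose (14.3%, against 13.3% of all genes tested), and Mxd3, a MYC antagonist, fell (log2 fold change -0.59, SE 0.14, adjusted p = 0.0251), a gene that overlaps Prelid1. Without pair 2, 4 or 5 the Mxd3 call was lost (adjusted p = 0.063, 0.081 and 0.11), and the Mycn call was lost without any of pairs 2 to 5 (adjusted p = 0.10 to 0.19). Mcl1, the short-lived anti-apoptotic BCL2 relative, rose about as much in every pair, at 276, 271, 282, 237 and 229 CPM in deprived replicates 1 to 5 and 559, 646, 566, 604 and 576 CPM in stimulated replicates 1 to 5 (log2 fold change 1.19, SE 0.08, adjusted p = 9.62e-05). Bcl2l1, which encodes BCL-XL, went from 35.8 ± 4.93 to 48.4 ± 7.13 CPM (SD, n = 5, log2 fold change 0.42, SE 0.13, adjusted p = 0.0466), but the groups overlapped and the call was lost without pair 2, 4 or 5 (adjusted p = 0.13, 0.13 and 0.15). The p53 target and CDK inhibitor Cdkn1a rose from 199 ± 34.1 to 869.6 ± 198 CPM (SD, n = 5, log2 fold change 2.11, SE 0.10, adjusted p = 1.59e-05), with Btg2, Plk3 and Mdm2 of the same list (log2 fold change 4.30, 3.63 and 0.97). In that list of 23 tested genes, 8 rose (34.8%, against 13.3% of all genes tested) and 2 fell (8.70%, against 9.09%). Leaving out 1 pair, 4 to 9 rose and 1 to 3 fell. Phlda1, a PH-domain protein that dampens AKT signalling (chr10:111506286-111508645, plus strand), was at 13.5, 12.3, 14.1, 13.1 and 17.1 CPM in deprived replicates 1 to 5 and 72.4, 358, 418, 603 and 576 CPM in stimulated replicates 1 to 5 (log2 fold change 4.58, SE 0.44, adjusted p = 0.000905). Its stimulated replicate 1 lay far below the other 4. Cd69, an early activation antigen, rose from 3.73 ± 0.796 to 155 ± 77 CPM (SD, n = 5, log2 fold change 5.32, SE 0.17, adjusted p = 1.56e-06).

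Receptor genes moved in both directions. Of 22 tested cytokine and chemokine receptors, 5 rose (22.7%, against 13.3% of all genes tested) and 4 fell (18.2%, against 9.09%). Leaving out 1 pair, 2 to 6 rose and 2 to 3 fell. Il4ra, a STAT target that encodes the IL4 receptor alpha chain, was at 32.3, 34.2, 36.7, 32.8 and 28.3 CPM in deprived replicates 1 to 5 and 43.8, 175, 141, 234 and 173 CPM in stimulated replicates 1 to 5 (log2 fold change 2.05, SE 0.32, adjusted p = 0.00628). Replicate 1 was close to its deprived level, and the call was lost without pair 3 (adjusted p = 0.074). Tnfrsf12a, the TWEAK receptor, rose from 3.52 ± 0.880 to 33.4 ± 18.2 CPM (SD, n = 5, log2 fold change 3.05, SE 0.28, adjusted p = 0.000636). Csf2rb2 and Csf2rb, the IL3-specific and shared beta chains, are near-identical in sequence, so their counts (log2 fold change 0.67 and 0.56) are uncertain. Csf2rb was named after its value was seen. Both calls were lost without any of pairs 2 to 5 (adjusted p = 0.071 to 0.12 by edgeR). Epor, the erythropoietin receptor, fell from 55.9 ± 7.87 to 35.7 ± 10.3 CPM (SD, n = 5, log2 fold change -0.67, SE 0.09, adjusted p = 0.00394). Among 28 tested components of the JAK/STAT and RAS pathways, 4 rose (14.3%, against 13.3% of all genes tested) and 3 fell (10.7%, against 9.09%). The called ones all changed by less than 1.5-fold (0 to 6 rose and 1 to 4 fell, leaving out 1 pair). Stat2 was the most certain of these, at 61.9, 68.9, 68.1, 72.3 and 78.3 CPM in deprived replicates 1 to 5 and 51.2, 52.5, 49.2, 46.1 and 55.4 CPM in stimulated replicates 1 to 5 (log2 fold change -0.45, SE 0.07, adjusted p = 0.00517). Stat3 (log2 fold change 0.35), which overlaps Stat5a in the annotation, lost its call without any of pairs 2 to 5 (adjusted p = 0.068 to 0.12), and the phosphatase Ptpn6 (-0.27) without pair 2, 4 or 5 (adjusted p = 0.079 to 0.11).

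Fewer genes fell strongly than rose strongly. Cxcr4, the chemokine receptor for CXCL12 (chr1:128588199-128592293, minus strand), was at 518, 653, 591, 716 and 752 CPM in deprived replicates 1 to 5 and 278, 139, 150.2, 78 and 204 CPM in stimulated replicates 1 to 5 (log2 fold change -2.03, SE 0.28, adjusted p = 0.00406). The groups did not overlap, and without pair 3 the adjusted p was 0.056. Nfkbia (chr12:55489410-55492647, minus strand), the NF-kB inhibitor, had the largest fall of those above 5 CPM, at 42.9, 47.6, 33.8, 48.1 and 48.8 CPM in deprived replicates 1 to 5 and 34.5, 6.72, 6.07, 7.27 and 5.13 CPM in stimulated replicates 1 to 5 (log2 fold change -2.25, SE 0.40, adjusted p = 0.0105). In pair 1 it hardly differed, so the groups overlapped, and it missed the threshold without pair 3 or 5 (adjusted p = 0.11 and 0.055). Ddit4, a stress-induced inhibitor of mTORC1 (chr10:59949669-59951834, minus strand), was at 86, 109, 57.6, 84.1 and 83.1 CPM in deprived replicates 1 to 5 and 45.4, 26, 16.5, 21.1 and 20.2 CPM in stimulated replicates 1 to 5 (log2 fold change -1.75, SE 0.17, adjusted p = 0.000905). Gfi1b, a transcriptional repressor that recruits LSD1 (chr2:28609450-28621982, minus strand), was at 147, 121, 154, 146 and 153 CPM in deprived replicates 1 to 5 and 118, 37, 51.6, 36 and 47.1 CPM in stimulated replicates 1 to 5 (log2 fold change -1.46, SE 0.22, adjusted p = 0.00588), with an adjusted p of 0.070 without pair 3. Rgs2, a regulator of G protein signalling, went from 67.6 ± 7.99 to 20.8 ± 7.71 CPM (SD, n = 5, log2 fold change -1.74, SE 0.21, adjusted p = 0.00226), and Tsc22d3, the FOXO and glucocorticoid target GILZ, from 22 ± 1.89 to 7.84 ± 2.45 CPM (SD, n = 5, log2 fold change -1.50, SE 0.16, adjusted p = 0.0014). Snx32, which overlaps Cfl1, went from 43.7 ± 3.60 to 14.7 ± 2.16 CPM (SD, n = 5, log2 fold change -1.57, SE 0.12, adjusted p = 0.000275). The other falls among the 15 largest above 5 CPM were Zscan2, Esyt3, Rnf43, Kif5a, Zkscan14, S1pr4, Cbx2 and Zfp763, with log2 fold changes from -1.99 to -1.07. Rnf43 overlaps 1110028F11Rik. Of these, Zscan2 lost the call without pair 3, 4 or 5 (adjusted p = 0.054 to 0.070) and had a log2 fold change of -2.60 without pair 1. Rnf43 lost it without any of pairs 2 to 5 (adjusted p = 0.068 to 0.097), and Zfp763 without pair 5 (adjusted p = 0.051).

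Of the genes known to be raised by growth factor withdrawal, a larger share fell within the 30 min than of all genes. Among 29 tested genes of FOXO-type withdrawal, 7 fell (24.1%, against 9.09% of all genes tested) and 3 rose (10.3%, against 13.3%), so 19 had no call. The log2 fold change was below 0 for 21 of the 29, with a median of -0.14 (1 to 5 rose and 4 to 8 fell, leaving out 1 pair). Bbc3, the BH3-only killer PUMA, was at 90, 57.7, 76.9, 78.9 and 62.3 CPM in deprived replicates 1 to 5 and 70.9, 27.1, 32.6, 30.9 and 27 CPM in stimulated replicates 1 to 5 (log2 fold change -1.04, SE 0.14, adjusted p = 0.00406). Replicate 1 was the highest of the stimulated libraries and lay inside the deprived range. Gadd45a, a stress gene that overlaps E230016M11Rik, fell from 48.5 ± 9.13 to 28.6 ± 9.26 CPM (SD, n = 5, log2 fold change -0.79, SE 0.10, adjusted p = 0.00334), and Cdkn1b, the CDK inhibitor p27, from 79.8 ± 3.53 to 57.5 ± 9.73 CPM (SD, n = 5, log2 fold change -0.48, SE 0.10, adjusted p = 0.0169). Cdkn1b lost its call without pair 2, 4 or 5 (adjusted p = 0.062, 0.065 and 0.068). Cited2, a CBP/p300-binding factor in the same list, rose, from 267 ± 53 to 789 ± 54 CPM (SD, n = 5, log2 fold change 1.58, SE 0.12, adjusted p = 0.000241). Bcl2l11, the BH3-only gene BIM, differed by -0.14 (adjusted p = 0.17 by edgeR) and was named after its value was seen. NF-kB targets split, with 7 rises (38.9%, against 13.3% of all genes tested) and 5 falls (27.8%, against 9.09%) among 18 tested. Leaving out 1 pair, 4 to 8 rose and 0 to 5 fell. Nfkbiz, an inducible coactivator, rose from 3.76 ± 0.653 to 26.1 ± 4.08 CPM (SD, n = 5, log2 fold change 2.78, SE 0.12, adjusted p = 1.2e-05), and Rel rose with it (log2 fold change 1.37, SE 0.21, adjusted p = 0.00612). Tnfaip3, the ubiquitin-editing inhibitor A20 and also named afterwards, fell (log2 fold change -1.72, SE 0.40, adjusted p = 0.022 by edgeR). Its call was lost without any of pairs 2 to 5 (adjusted p = 0.070 to 0.085 by edgeR), and its log2 fold change was -2.33 without pair 1.

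Small shifts that recurred in every pair made up most of the calls in the fit with all 5 pairs, but their number depended on single pairs. There were 872 rises and 759 falls under 1.5-fold with the same sign in all 5 pairs. Leaving out 1 pair gave 78 to 1284 such rises and 22 to 1361 such falls. They were the smaller part of the calls without pair 2, 4 or 5, at 171 and 62 of 786, 136 and 47 of 662, and 78 and 22 of 475 genes, and also at an adjusted p under 0.01, at 101 and 35 of 554. Ddx5, an RNA helicase of splicing and transcription, had the smallest adjusted p among these rises with a mean of at least 20 CPM, at 669.5, 716, 538, 538 and 505 CPM in deprived replicates 1 to 5 and 889.6, 1103, 797, 828 and 801 CPM in stimulated replicates 1 to 5. The deprived and stimulated ranges did not overlap (log2 fold change 0.58, SE 0.07, adjusted p = 0.00197). Srsf5, a splicing factor of the SR family, was at 327, 309, 216, 257 and 225 CPM in deprived replicates 1 to 5 and 422, 413, 306, 366 and 311 CPM in stimulated replicates 1 to 5 (log2 fold change 0.45, SE 0.05, adjusted p = 0.00217). Its groups overlapped, since replicates 1 and 2 were high before and after IL3, and every pair went up. Mad2l1bp, which silences the spindle checkpoint, was at 50.5, 50.5, 65.9, 51.1 and 54.4 CPM in deprived replicates 1 to 5 and 75.7, 79.3, 83.2, 73.5 and 76 CPM in stimulated replicates 1 to 5 (log2 fold change 0.51, SE 0.06, adjusted p = 0.00251). Cyth2, Srxn1, Mesdc1, Usp31 and Purb completed the 8 most certain small rises, with log2 fold changes of 0.45 to 0.56, and none of their groups overlapped. The 8 most certain small falls were Zfp35, Abhd14b, Marveld1, Luc7l3, Cdan1, Pnrc2, Stat2 and Tpra1, between -0.58 and -0.40. Cdan1, mutated in dyserythropoietic anaemia, was at 64.5, 64.8, 69.4, 71.3 and 74.4 CPM in deprived replicates 1 to 5 and 54.6, 43.8, 47.4, 44.1 and 52 CPM in stimulated replicates 1 to 5 (log2 fold change -0.51, SE 0.07, adjusted p = 0.00485). It overlaps Ttbk2, and Abhd14b overlaps Abhd14a. Luc7l3, a splicing factor of the U1 particle, went from 174 ± 19 to 132 ± 8.71 CPM (SD, n = 5, log2 fold change -0.40, SE 0.06, adjusted p = 0.00481). These 16 genes kept their call when any single pair was left out, but 12 of them had none in a fit that took the spread from all 27 libraries of the series, where 45 small rises and 6 small falls were called in all.

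Further gene groups shifted slightly, some toward higher levels and some evenly in both directions. The log2 fold change was above 0 for 37 of 56 ribosome biogenesis genes, 18 of 23 SR proteins and splicing kinases and 15 of 22 ER chaperones, but for 7 of 14 heat shock genes and 14 of 27 genes of transcription elongation, against 5341 of all 11195 genes tested. Of 56 tested ribosome biogenesis genes, 21 rose (37.5%, against 13.3% of all genes tested) and 2 fell (3.57%, against 9.09%), with a median log2 fold change of 0.22. Rrs1, an assembly factor of the large subunit, was at 32, 29.9, 22.8, 27.4 and 27 CPM in deprived replicates 1 to 5 and 40.5, 67.9, 56.7, 84 and 64.2 CPM in stimulated replicates 1 to 5 (log2 fold change 1.13, SE 0.16, adjusted p = 0.00485). Nmd3, its nuclear export adaptor, rose from 51.3 ± 7.73 to 92.1 ± 14.1 CPM (SD, n = 5, log2 fold change 0.84, SE 0.13, adjusted p = 0.00599), and Gnl3, the GTPase nucleostemin, from 46 ± 10.3 to 107 ± 25.2 CPM (SD, n = 5, log2 fold change 1.21, SE 0.20, adjusted p = 0.00727). Gnl3 overlaps Pbrm1 and had an adjusted p of 0.063 without pair 3. In this list 6 to 27 rose and 0 to 3 fell when 1 pair was left out. SR proteins and splicing kinases had 7 rises (30.4%, against 13.3% of all genes tested) and 2 falls (8.70%, against 9.09%) among 23 tested (median 0.15). Srsf6, Tra2a and Tra2b rose beside Srsf5 (log2 fold change 0.33, 0.34 and 0.26). In that list 1 to 12 rose and 1 to 2 fell when 1 pair was left out. Of 22 ER chaperones and unfolded protein response genes, 8 rose (36.4%, against 13.3% of all genes tested), led by Hspa5 (BiP, log2 fold change 0.50, SE 0.07, adjusted p = 0.0047), Dnajb9 (0.68) and Xbp1 (0.77). Leaving out 1 pair, 3 to 12 rose and 0 to 1 fell there. Heat shock genes gave 4 rises of 14 (28.6%, against 13.3% of all genes tested), and 3 to 6 rose and 0 to 2 fell, leaving out 1 pair. Among the 4 was Dnajb1, a cochaperone of HSP70, which rose from 109.6 ± 8.14 to 301 ± 57 CPM (SD, n = 5, log2 fold change 1.44, SE 0.08, adjusted p = 4.85e-05). Of 27 genes of transcription elongation, 7 rose (25.9%, against 13.3% of all genes tested), including Ccnl1, Aff4 and Ell2 (log2 fold change 0.80, 0.81 and 0.54). In the same list 4 fell (14.8%, against 9.09%), including Hexim2 (-0.70), an inhibitor of P-TEFb (4 to 9 rose and 1 to 6 fell, leaving out 1 pair).

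Nutrient uptake and sterol genes rose in part. Of 18 nutrient transporters 8 rose (44.4%, against 13.3% of all genes tested), and 4 to 8 rose and 0 to 1 fell, leaving out 1 pair. The rises were led by the phosphate carrier Slc20a1, which was at 29.1, 19.9, 25, 19.8 and 19.1 CPM in deprived replicates 1 to 5 and 85.4, 124, 125, 132 and 128 CPM in stimulated replicates 1 to 5 (log2 fold change 2.39, SE 0.18, adjusted p = 0.00022). Slc2a1, the glucose transporter GLUT1, went from 34.9 ± 16.6 to 77.1 ± 17 CPM (SD, n = 5, log2 fold change 1.198, SE 0.18, adjusted p = 0.00521). Of 26 glycolysis and hypoxia genes 7 rose (26.9%, against 13.3% of all genes tested) and 1 fell (3.85%, against 9.09%). The rises included Pfkfb3, which makes the activator of phosphofructokinase (log2 fold change 1.10). In that list 5 to 7 rose and 0 to 7 fell when 1 pair was left out. Of 23 cholesterol and lipid genes 8 rose (34.8%, against 13.3% of all genes tested) and 2 fell (8.70%, against 9.09%). Leaving out 1 pair, 3 to 10 rose and 0 to 4 fell. Insig1, which helps retain SREBP precursors in the endoplasmic reticulum, rose from 18.2 ± 3.0 to 28.8 ± 5.12 CPM (SD, n = 5, log2 fold change 0.67, SE 0.08, adjusted p = 0.00203). Among the falls was Mvd, an enzyme of the mevalonate pathway (-0.47). Mvd lost its call without pair 4 or 5 (adjusted p = 0.068 and 0.086). Of 43 translation factors 8 rose (18.6%, against 13.3% of all genes tested), and 1 to 10 rose and 0 to 5 fell, leaving out 1 pair. One of the rises was Eif1a, the start codon scanning factor, which went from 57.4 ± 4.28 to 119 ± 29.7 CPM (SD, n = 5, log2 fold change 1.00, SE 0.15, adjusted p = 0.00533). Atf4, the factor of the integrated stress response, rose, at 157, 139, 199.8, 146 and 147 CPM in deprived replicates 1 to 5 and 392, 345, 373, 412 and 396 CPM in stimulated replicates 1 to 5 (log2 fold change 1.29, SE 0.09, adjusted p = 0.000162). In its list of 21 genes, 5 rose, Atf4 included (23.8%, against 13.3% of all genes tested), and 2 fell (9.52%, against 9.09%). Leaving out 1 pair, 1 to 5 rose and 0 to 5 fell. Among 34 genes of DNA replication and S phase, 7 fell (20.6%, against 9.09% of all genes tested), with Cdt1, a licensing factor, from 279 ± 21 to 191 ± 39.2 CPM (SD, n = 5, log2 fold change -0.57, SE 0.10, adjusted p = 0.00892). Rrm2 rose (log2 fold change 0.49). The log2 fold change was below 0 for 26 of the 34, and 52.9% were lower in all 5 pairs, against 23.2% of all genes tested. Lower genes with an unadjusted p under 0.05 by edgeR were 50% of the list, against 21.5% of all genes tested. Across the fits without 1 pair, 1 rose and 0 to 14 fell in the list. Cdt1 had an adjusted p of 0.057 without pair 5. Of 30 mitosis genes, 2 rose (6.67%, against 13.3% of all genes tested), and 0 to 5 rose and 0 to 2 fell, leaving out 1 pair.

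Most genes for structural proteins of the ribosome, the respiratory chain and the proteasome had slightly lower levels after IL3, and nearly all of them were without a call. None of 79 cytosolic ribosomal protein genes was called by edgeR, although 70 were lower in all 5 pairs (88.6%, against 23.2% of all genes tested) and the median log2 fold change was -0.31. An unadjusted p under 0.05 was reached by 40 of the 79, all lower (50.6%), against 2409 lower genes of all tested (21.5%). DESeq2 with the same block called 33 of them lower and limma-voom 0. The pair medians were -0.06, -0.14, -0.95, -0.13 and -0.29 for pairs 1 to 5, so pair 3 stood apart. Of 73 oxidative phosphorylation genes, 1 fell (Ndufa7, -0.35, adjusted p = 0.092 to 0.17 without pair 2, 4 or 5), with pair medians of -0.04, -0.13, -0.81, -0.11 and -0.29. Of 76 mitochondrial ribosomal proteins, 8 fell (10.5%, against 9.09% of all genes tested) and 1 rose (median -0.23, and -0.67 in pair 3). Of 39 proteasome subunits 1 fell (median -0.15, and -0.53 in pair 3). Without pair 3, 14 mitochondrial ribosomal proteins and 5 proteasome subunits were called lower, and without pair 2, 4 or 5, 0 in all 4 lists. Pair 3 contains deprived replicate 3, with its scaling factor of 0.865. Without pair 3 the difference was smaller and the calls more numerous: 49 of the 79 cytosolic ribosomal proteins and 25 of the 73 respiratory genes were then called lower, with medians of -0.15 and -0.13. Without pairs 1 and 3, 68 and 57 were called lower (medians -0.18 and -0.17). The summed level of the cytosolic list was 102373 to 177837 CPM in deprived and 82825 to 124877 CPM in stimulated libraries.

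**Figure D3:**
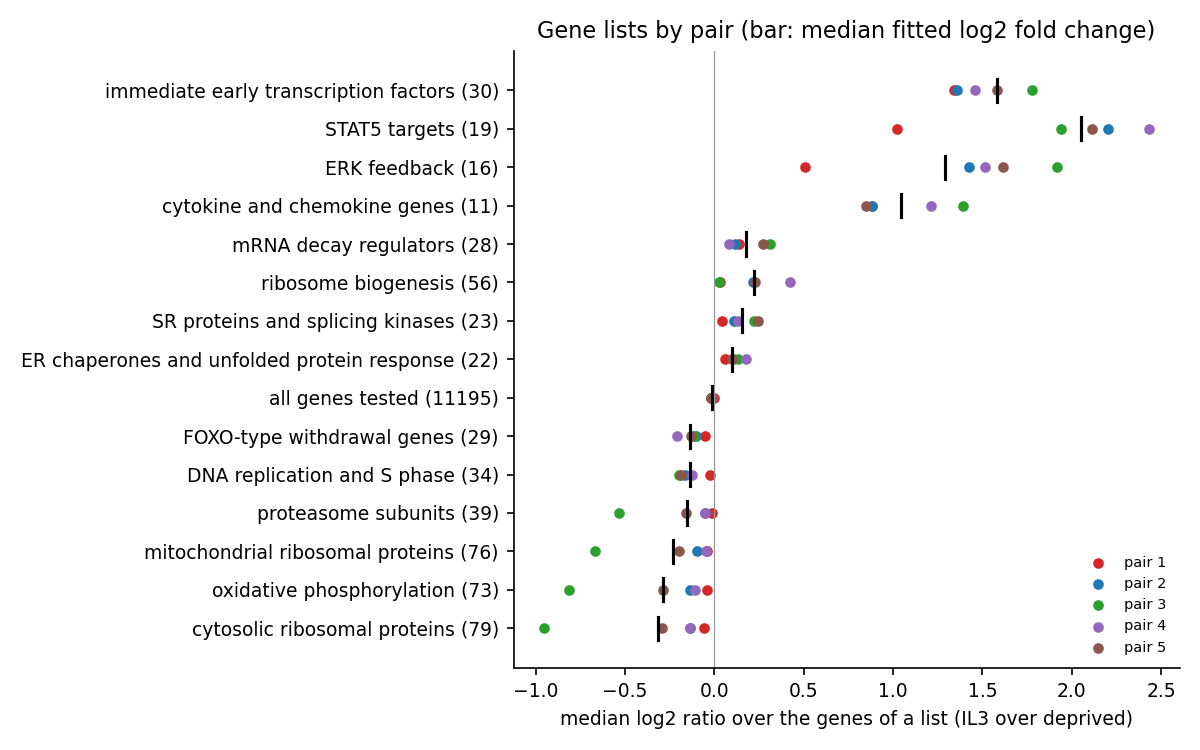
Median log2 ratio of stimulated over deprived CPM over the genes of a list, 1 point per pair, with a bar at the median fitted log2 fold change and the number of tested genes in brackets. The lists at the top are high in all pairs, with pair 1 lowest for STAT5 targets and ERK feedback, and pair 3 lies far below the rest in the last 4 lists.

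Lineage and chromatin regulators changed in both directions. Of 21 haematopoietic transcription factors, 5 rose and 4 fell, so 42.9% were called, against 22.4% of all genes tested (3 to 6 rose and 1 to 5 fell, leaving out 1 pair). Gata2 was at 1079, 777, 711, 714 and 771 CPM in deprived replicates 1 to 5 and 961, 511, 499.8, 438 and 491 CPM in stimulated replicates 1 to 5 (log2 fold change -0.53, SE 0.09, adjusted p = 0.00874), and Gata1 fell from 391 ± 32.4 to 289 ± 44.7 CPM (SD, n = 5, log2 fold change -0.45, SE 0.08, adjusted p = 0.0089). Both missed the threshold without pair 5 (adjusted p = 0.060 and 0.059). Lyl1 fell as well (log2 fold change -0.87, SE 0.13, adjusted p = 0.00599), and Ets2 and Runx1 rose (log2 fold change 1.03 and 0.35). Lyl1 overlaps Nfix. Klf1, the erythroid factor, was at 179, 180.1, 116, 202 and 248.6 CPM in deprived replicates 1 to 5 and 143, 107, 66.3, 114 and 128 CPM in stimulated replicates 1 to 5 (log2 fold change -0.73, SE 0.09, adjusted p = 0.00267). Of the 10 erythroid and megakaryocyte markers 5 were tested, and Gata1, Klf1, Epor and Gp1ba fell (80%, against 9.09% of all genes tested) while Itga2b was not called. Gp1ba lost its call without pair 2, 4 or 5 (adjusted p = 0.10 to 0.13). Hba-a1, a globin gene, was at 0 in all 10 libraries. The sum over this list was 930 to 1461 CPM in deprived and 709 to 1371 CPM in stimulated libraries. Of the markers of other cell types, 1 of 3 tested B-lineage, 2 of 6 mast cell and 1 of 7 myeloid markers fell. These were 33.3%, 33.3% and 14.3%, against 9.09% of all genes tested. Of 4 T and NK cell markers 1 rose (25%, against 13.3%). The lists are short, so 1 gene moves such a share far. The summed levels of these markers overlapped between the groups, at 815 to 1347 and 575 to 1023 CPM for mast cells and 144 to 443 and 132 to 331 CPM for myeloid cells, with Kit, the mast cell receptor, at 0 in 9 libraries. The part of a changed cell mix in the lineage genes was not tested. Among Polycomb and trithorax genes (29 tested), 7 rose (24.1%, against 13.3% of all genes tested), including the H3K27 demethylase Kdm6b, from 19.1 ± 4.36 to 51.6 ± 12.4 CPM (SD, n = 5, log2 fold change 1.42, SE 0.14, adjusted p = 0.000992). In the same list 4 fell (13.8%, against 9.09%), including Cbx2 (-1.09), so 37.9% were called, against 22.4% of all genes tested. In this list 3 to 8 rose and 1 to 4 fell when 1 pair was left out. Of 25 genes of LSD1, HDAC and partner co-repressors, 2 rose and 4 fell (24% called, against 22.4% of all genes tested). Gfi1b was the largest change there (0 to 3 rose and 1 to 6 fell, leaving out 1 pair). Among 277 Zfp zinc finger genes, 44 rose (15.9%, against 13.3% of all genes tested) and 51 fell (18.4%, against 9.09%) (7 to 47 rose and 8 to 65 fell, leaving out 1 pair). Zfp800 and Zfp131 were among the rises (1.27 and 1.06) and Zfp82 and Zfp874b among the falls (-1.04 and -0.87). Of 13 noncoding RNA genes, Mir17hg and Mir22hg, host genes of microRNAs, rose (1.64 and 2.13), and Snhg5 and Snhg7, hosts of small nucleolar RNAs, fell (-0.78 and -0.45). The rises and the falls were each 15.4% of the 13, against 13.3% and 9.09% of all genes tested. Snhg7 kept its call only without pair 3 among the fits that left out 1 pair (adjusted p = 0.080 to 0.11 in the other 4).

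The span of a gene on the chromosome is given for each kind of change as a description, without a test. By GENCODE vM21 (GRCm38), which matched 94.6% of the tested symbols, the median span was 21.7 kb over all tested genes. It was 9.75 kb for rises of at least 2-fold (253 matched) and 8.20 kb for rises of at least 4-fold. Falls of at least 2-fold had a median of 7.62 kb and small falls one of 11.6 kb, whereas small rises had a median of 32.6 kb. Among large rises 14.6% of genes had a single exon, against 2.91% of all tested genes, and the median number of exons was 4 against 9. Short genes were thus found among strong changes in both directions and long genes among slight rises. The classes also differed in gene type and level. Of the matched large rises and large falls, 89.7% and 76.9% were protein coding, against 95.5% of all tested genes. Median levels were 11.3 CPM for large rises and 4.15 CPM for large falls, against 40.5 CPM for all tested genes. The part of these differences in the spans and exon numbers was not tested. The log2 ratio also followed the exonic length in every pair, most steeply in pair 3, with medians of -0.45, -0.05, 0.10 and 0.20 over 4 equal groups from the shortest to the longest genes. The medians went from -0.17 to 0.13 in pair 5, from -0.08 to 0.05 in pair 2, from -0.07 to 0.05 in pair 4 and from -0.03 to 0.03 in pair 1, in the same order over the 4 groups. The median spans were 7.85 kb for large rises, 7.62 kb for large falls, 31 kb for small rises and 11.5 kb for small falls in the fit without pair 3, against 21.8 kb for all genes.

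**Figure D4:**
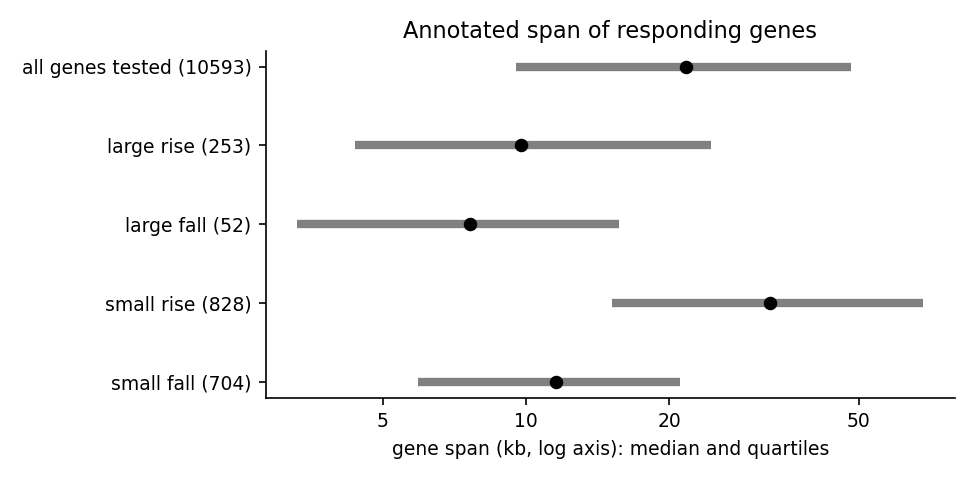
Median (point) and quartiles (bar) of the annotated gene span in kb (log axis) for all tested genes and for genes changed at least 2-fold or under 1.5-fold, with the number of matched genes in brackets. Small rises lie to the right of all tested genes (32.6 against 21.7 kb), and the other 3 classes to the left.

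The size of the response differed between the pairs, and the cause was not tested. Over the 267 large rises, the median log2 ratio was 0.83 in pair 1 and 1.55, 1.60, 1.68 and 1.61 in pairs 2 to 5, and over the 56 large falls it was -0.70 against -1.42, -1.42, -1.52 and -1.35. Pair 1 had the smallest ratio of the 5 in 190 of the 267 rises and in 45 of the 56 falls. These genes were called with pair 1 included, so the counts describe the pairs and test nothing. The difference lay mainly in stimulated replicate 1, which differed from the other 4 stimulated libraries by a median of -0.53 (log2) over the large rises, while deprived replicate 1 differed from the other deprived ones by 0.18. The weaker change did not extend to every gene. Of 154 large rises with a mean of at least 5 CPM, 114 were below each of the other pairs in pair 1, but 11 were above each of them. Fos had a log2 ratio of 8.84 in pair 1 and 6.24 to 7.60 in the others. Hist1h1c, a linker histone gene that lost its call without any of pairs 2 to 5 (adjusted p = 0.061 to 0.13), had 2.89 against 0.37 to 1.65, and Ier3 3.59 against 2.60 to 2.87. In the opposite direction, Phlda1 had 2.42 against 4.85 to 5.51. Nfil3, a bZIP repressor induced by IL3, had 0.12 against 1.81 to 3.09, at 17, 24.2, 21.7, 17.9 and 31.9 CPM in deprived replicates 1 to 5 and 18.5, 127, 76.6, 153 and 165 CPM in stimulated replicates 1 to 5 (log2 fold change 1.98, SE 0.37, adjusted p = 0.012), and was not called without pair 3 or 5 (adjusted p = 0.097 and 0.069). Jun and Ier2, named after their values were seen, also peaked in pair 1 (5.55 against 4.00 to 4.59, and 5.08 against 3.38 to 3.91).

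**Figure D5:**
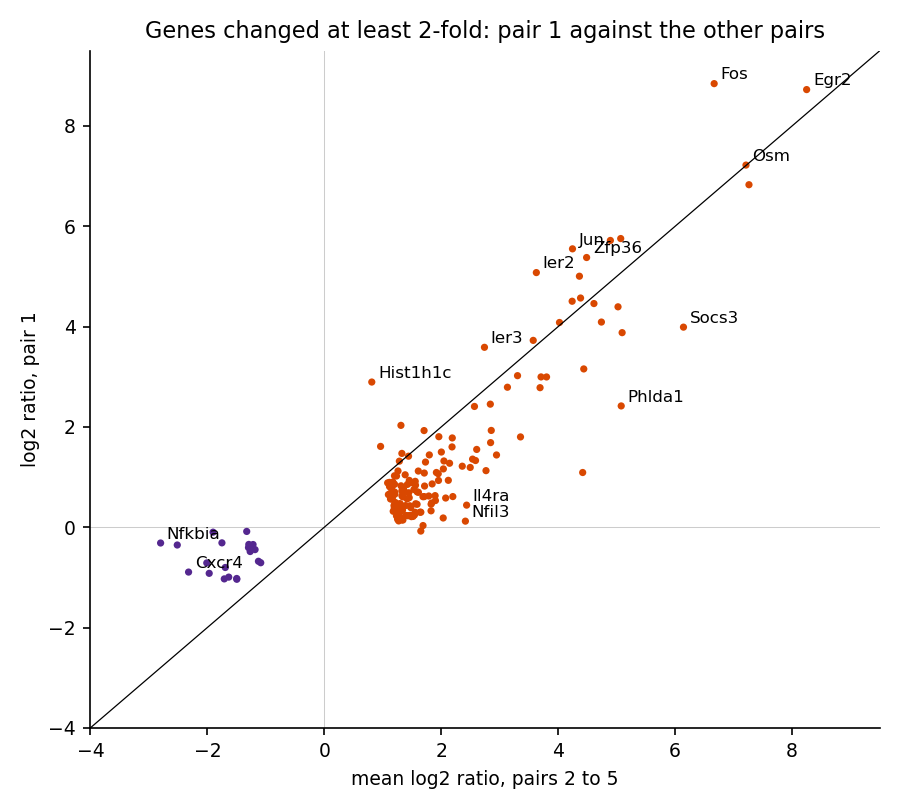
Log2 ratio of stimulated over deprived CPM in pair 1 against its mean in pairs 2 to 5, for the 154 rises (orange) and 20 falls (purple) of at least 2-fold with a mean of at least 5 CPM; the black line marks equal ratios. Most points lie nearer to 0 in pair 1, while Fos, Jun, Ier2, Zfp36, Ier3 and Hist1h1c lie above the line.

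A further set of 5 libraries came from cells with a no-target lentiviral hairpin, deprived and stimulated in the same way, with no deprived counterpart, so it gives levels only. Scaled together with the wild-type libraries, Cish was at 340 to 685 CPM in the no-target libraries, against 348 to 552 CPM in stimulated and 12.2 to 23.6 CPM in deprived wild type. Egr2 was at 54.7 to 336 CPM, Socs1 at 101 to 222 CPM and Myc at 852 to 1826 CPM, all far above the deprived wild-type ranges. Fos varied most, at 12.4 to 313 CPM. Of the falling genes, Nfkbia was at 7.0 to 12.5 CPM and Gfi1b at 21.9 to 69.2 CPM, both below every deprived wild-type library. Cxcr4, at 52.8 to 282 CPM, was also below the deprived range of 525 to 760 CPM. Of the most certain small shifts, Ddx5, Usp31 and Purb lay above and Marveld1, Cdan1 and Tpra1 below the deprived range. Srsf5, Mad2l1bp, Cyth2, Srxn1, Mesdc1, Zfp35, Abhd14b, Luc7l3, Pnrc2 and Stat2 overlapped it. Mad2l1bp, for example, was at 47.8 to 97.2 CPM, against 51.2 to 65.9 CPM in deprived wild type.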

How the data were processed

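Wild-type Ba/F3 cells after 6 h without IL3, with or without 30 min of IL3 at 10 ng/mL (n = 5 each), were grouped by sample title. The deposited files give raw read counts per gene symbol, 1 file per library, made by the authors with Trimmomatic 0.30, TopHat2 2.0.10, HTSeq 0.5.4p5 and mm10, per the submitters' processing notes. Whether counting used the strand is not given in the sources used here. The 5 HTSeq summary lines of each file entered neither the library sizes nor the fit. Reads outside genes were 9.16 to 10.6% and ambiguous reads 1.14 to 1.53% of the counted, outside and ambiguous reads together.

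The counts were fitted with edgeR 4.0.16 (R 4.3.3): filterByExpr, TMM factors, robust dispersion and quasi-likelihood tests, with the replicate number as a block and Benjamini-Hochberg adjustment over 11195 genes, two-sided, called at an adjusted p under 0.05. Log2 ratios of a pair used a prior count of 2. The numbers pair the libraries: deviations from the group means correlated at 0.53, 0.76, 0.56, 0.42 and 0.62 between same-numbered libraries and at most at 0.05 between others. No library was a copy of another: counts of libraries of a group differed beyond sampling noise in all 20 comparisons. Counts of single genes carry counting error as well as the spread between libraries.

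The members and gene lists were chosen with earlier results of these data known. Named genes are 21 core genes, the 12 largest rises and 15 largest falls (mean of at least 5 CPM, same sign in 5 pairs), the 8 most certain small rises and 8 small falls (at least 20 CPM), up to 5 called members of each list and the 6 with the largest spread between pairs. Some of these genes are not reported here. Alternatives were other scalings and filters, DESeq2 1.42.0, limma-voom 3.58.1, no block, all 27 libraries, stricter thresholds and leaving out each pair. The fit was tested on simulated data, in a single draw with far fewer changed genes than were called in the real data. There it recovered most changes of 1.5-fold or more but few of the smallest ones, and its share of false calls was above the nominal one. Both shares can depend on how many genes change, so they need not hold for the real data. The sizes of the false calls were not recorded, so their part in the small shifts was not tested and remains a caution for them. Spans come from GENCODE vM21 and promoters from RefSeq (GRCm38.p6).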

Additional observations from a re-analysis of the deposited data

Results flagged for a closer look

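A library stood apart from the other 4 of its group, by more than 0.71 of the group's range (Dixon's 95% critical value), in 58 of 288 groups of named genes. The cutoff marks about 1 in 20 groups of independent, normally distributed values. These groups share the same 10 libraries and include genes named for their spread or after their values were seen. The 58 cases are therefore a description and cannot be set against chance. In 30 of these cases the library was stimulated replicate 1. It was the highest of its group, in CPM, for Ccnd2 97.2, Egr1 2.16, Fos 619.7, Gfi1b 118, Fosb 49.5, Zfp36 345, Nfkbia 34.5, Zscan2 5.60, Rgs2 34.2, Tsc22d3 12.2, Marveld1 101, Tnf 6.91, Epor 53.6, Bbc3 70.9, Hist1h1c 73.3, Mvd 62.3, Lyl1 247, Gata2 961, Gata1 365, Gp1ba 18.7, Ltb 50.7, Pnrc1 139, Bcl2l11 46.4, Tnfaip3 4.05, Jun 193 and Ier2 2646. It was the lowest for Mdm2 89.9, Nfkbiz 19.1, Slc20a1 85.4 and Actb 4464. Several of these are falling genes (Gfi1b, Nfkbia, Rgs2, Tsc22d3 and Bbc3 among them), for which this library lay nearest to the deprived cells, and others are Fos, Fosb, Jun, Ier2, Zfp36 and Tnf, for which it lay farthest from them.

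Deprived replicate 3, the library with the low scaling factor, stood apart in 11 cases. It was highest, in CPM, for Esyt3 12.5, Mad2l1bp 65.9, Ndufa7 217, Hist1h1c 17, Snhg5 111, Snhg7 51.5 and Cd79b 65.6, and lowest for Junb 34.6, Zfp36 3.73, Dusp1 6.46 and Vegfa 10.7. Deprived replicate 2 was highest for Socs1 1.82, Zfp763 17.5, Nfkbiz 4.91, Ell2 72.4, Slc2a1 64.4 and Actg1 1390.5 CPM, and lowest for Gfi1b 121 CPM. The remaining cases, in CPM, were deprived replicate 1 with E2f3 32.3 and Gata2 1079, deprived replicate 4 with Zfp82 13, deprived replicate 5 with S1pr4 40.4 and Luc7l3 141, stimulated replicate 2 with Tra2b 238 and Actg1 4226, and stimulated replicate 5 with Osm 2039.7, Zfp35 106 and Kif5a 4.76.

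Among 44 gene lists, 7 had a pair apart from the others in the median log2 ratio. Pair 3 was low for cytosolic ribosomal proteins (-0.95), mitochondrial ribosomal proteins (-0.67), proteasome subunits (-0.53), small nucleolar RNA hosts and other noncoding genes (-0.45) and T and NK cell markers (-0.31), and high for p53 targets (0.43). Pair 1 was nearest to 0 for erythroid and megakaryocyte markers (-0.15). The part of the scaling factor of 0.865 in the pair 3 values was not tested.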

How the results depend on the processing

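The 2504 called genes became 1170 without the replicate block (808 higher, 362 lower, 338 small rises and 202 small falls), of which 1167 were among the 2504. With the spread of all 27 libraries 412 were called (326, 86, 45 and 6), at an adjusted p under 0.01 554 (433, 121, 101 and 35), and against a 1.2-fold minimum 579 (445, 134, 47 and 18). Leaving out 1 pair gave 475 to 3454 genes (384 to 1843 higher and 91 to 1611 lower), 78 to 1284 small rises, 22 to 1361 small falls and 29 to 93 large falls. Without pairs 1 and 3, an alternative chosen after seeing the data, 5336 were called (2687 higher, 2649 lower, 1847 small rises, 2276 small falls and 100 large falls). Total-count scaling gave 639 lower genes and 462 small falls. A minimum mean of 5 CPM left 168 large rises and 26 large falls, and a threshold of 0.01 left 37 large falls. Other scalings, no filter, DESeq2 (2805 genes) and limma-voom (2334) kept the total within 1.5 times. No named gene changed sign, but many lost the call: 59 without the block, 113 with all 27 libraries, and 3, 63, 18, 74 and 81 without pair 1 to 5. The median of Zfp genes turned to 0.03 with total-count scaling, and the T and NK cell list had no value above 5 CPM. Why calls were lost in those fits was not tested. Fits with 4 pairs leave fewer residual degrees of freedom, and those without pair 1 or 3 called more genes (3056 and 3454). Depth limits genes under 1 CPM, where groups rest on few reads.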

Other observations

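Some of the lists not described above had more calls than the 22.4% of all genes tested and others fewer. Of 23 genes of the PIM, AKT and mTOR group, 5 rose and 2 fell (30.4% called), with Pim1 and Ddit4 as the largest in each direction. Rheb, the activator of mTORC1, had a log2 fold change of 0.55, and Rptor, a subunit of that complex, one of -0.25 (both called by edgeR, and Rptor named after its value was seen). Both lost the call without pair 2, 4 or 5 (adjusted p = 0.067 to 0.10 by edgeR). Among 21 cyclins, cell cycle kinases and their inhibitors, 3 rose (Cdkn1a, E2f3 and Rb1) and Cdkn1b fell (19.05% called), and none of the cyclin genes in the list was called by edgeR. Of 11 BCL2 family genes, Mcl1 and Bcl2l1 rose and Bbc3 and Bid fell (36.4% called), with a median log2 fold change of -0.14. Among the genes just named, Cdkn1a, Mcl1 and Bbc3 were called whichever pair was left out, whereas E2f3, Rb1 and Bid lost the call without pair 2, 4 or 5 (adjusted p = 0.062 to 0.18 by edgeR), and Bid also without pair 1 (0.059). Among 20 tRNA synthetases 2 fell (10%, against 9.09% of all genes tested), and of 20 interferon response genes Irf9 rose (0.46) and Stat2 fell, although both encode subunits of 1 transcription factor complex. Of 20 histone genes 3 rose (15%, against 13.3% of all genes tested) and 1 fell (5%, against 9.09%). Of 30 lysosome genes 2 rose (6.67%, against 13.3% of all genes tested) and 3 fell (10%, against 9.09%). One that fell was Tfeb, the master regulator of lysosome genes (-0.42). The log2 fold change was below 0 for 24 of the 30 lysosome genes. In this list 43.3% were lower in all 5 pairs, against 23.2% of all genes tested. Lower genes with an unadjusted p under 0.05 by edgeR were 40% of the list, against 21.5% of all genes tested. Irf9 and Tfeb were not called without pair 2, 4 or 5 (adjusted p = 0.072 to 0.13 by edgeR).

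Genes of the actin cytoskeleton, which are classic targets of serum response factor, were not a list of their own. Srf itself had a log2 fold change of 1.90 (SE 0.12), Actg1 one of 1.64 and Actb one of 1.23, and all 3 were named after their values were seen. Of the genes that follow a gene raised at least 4-fold on the same strand within 10 kb, 3 of 9 rose, against 223 of 2043 (10.9%) of the genes that follow any other tested gene.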
